A study of Mus musculus with 12 samples.

Results

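The genes of mitosis and chromosome segregation form a list of 40 genes that encode the cyclins, kinases, kinetochore proteins, motors and cytokinesis factors of dividing cells. The list was drawn up by function, and its members were found as the probe sets whose only gene symbol in the array annotation is a listed name. This gave 39 genes of the 18193 with such probe sets, and 88 of 34945 probe sets. No probe set in the annotation carried Ccnb1 alone, so cyclin B1 has no value below. All 39 genes passed the filter on low signals, as did 81 of their 88 probe sets, and they were tested among 13156 genes.

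Expression was measured in CD8 T cells that had been enriched with a kit from spleens of male mice, on Affymetrix arrays with 3 arrays in each of 4 groups. KO T6 cells came from Cd4-Cre/Scapfl/fl mice and had been activated for 6 h with anti-CD3 bound to the plate and anti-CD28 in solution. WT T6 cells came from Cd4-Cre/Scap+/+ littermates and were activated in the same way. KO T0 and WT T0 cells had the same 2 genotypes and were quiescent. All 4 groups thus carried the Cre transgene under the Cd4 promoter, which is active in developing T cells and so deletes floxed genes in CD8 as well as CD4 T cells. Scap encodes the escort protein of the SREBP transcription factors. Age and strain are not given in the sources used here. The labels call the arrays of a group biological replicates and the design text gives 3 mice per genotype, but which arrays share a mouse is not stated. The p-values therefore measure the spread between these arrays. Values are log2(signal + 16), and for a gene with several probe sets the brightest over the 12 arrays was used. Levels of different genes come from different probes and are not set against each other.

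Cell division is driven by the kinase Cdk1 bound to A- and B-type cyclins. The chromosomal passenger complex and the kinetochores link chromosomes to spindle microtubules, and the spindle checkpoint holds back the anaphase promoting complex until every chromosome is attached. Most of these genes are transcribed late in the cell cycle, when MuvB complexes with B-Myb and Foxm1 occupy CHR elements near their start sites, and are repressed in resting cells by the DREAM complex at the same elements. Naive CD8 T cells in the spleen rest outside the cell cycle and divide for the first time well after the activation time studied here.

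Stretches of member promoters that carry known elements of mitotic genes are shown first. Whether these elements bear on the array pattern of the members, given below, was not tested. RefSeq promoter windows of assembly GRCm38.p6, from 250 bases before to 50 bases after a start site, were at hand for 35 members, in 38 windows. Ccna2, Kif20a, Aurkb, Foxm1 and Tpx2 had none there. A pair of motifs was searched on both strands. The CHR was taken as TTTGAA or TTCGAA, and the CCAAT box, bound by NF-Y, as CCAAT. A CHR match was present in 29 of the 38 member windows (76.3%), against 19.2% of all 32851 windows, and within 50 bases on either side of the start in 68.4% of member windows, against 5.31% of all. CCAAT was present in 78.9% of member windows and 37.4% of all. Both motifs were found in 23 members and neither in 5, namely Birc5, Mad2l1, Melk, Nuf2 and Nusap1. In the sequences below, written 5′ to 3′ in the direction of the gene, capitals mark CHR and CCAAT matches on either strand (TTCAAA and ATTGG are matches on the other strand). The Cdk1, Cdc20, Ube2c and Kif11 stretches stand for genes whose values ran with the mean of the other members over the 12 arrays. Their Pearson r was 0.99, 0.98, 0.96 and 0.97. The Bub3, Kif23 and Racgap1 stretches stand for genes of r below 0.8, at 0.12, 0.46 and 0.45. The first 5 are the 100 bases before the start site, and the last 2 are the 15 bases on either side of it, because their CHR match lies just after the start.
Cdk1 chr10:69352913-69353012, minus strand: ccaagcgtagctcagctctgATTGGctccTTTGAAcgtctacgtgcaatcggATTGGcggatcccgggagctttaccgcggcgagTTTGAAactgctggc
Cdc20 chr4:118437344-118437443, minus strand: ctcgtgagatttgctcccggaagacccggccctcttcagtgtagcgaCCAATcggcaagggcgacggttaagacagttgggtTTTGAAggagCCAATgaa
Ube2c chr2:164769829-164769928, plus strand: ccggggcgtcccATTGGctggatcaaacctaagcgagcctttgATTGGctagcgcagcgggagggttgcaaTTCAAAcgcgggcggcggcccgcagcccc
Kif11 chr19:37376282-37376381, plus strand: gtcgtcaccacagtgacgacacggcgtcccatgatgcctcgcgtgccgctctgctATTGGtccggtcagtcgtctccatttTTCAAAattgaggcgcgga
Bub3 chr7:131560270-131560369, plus strand: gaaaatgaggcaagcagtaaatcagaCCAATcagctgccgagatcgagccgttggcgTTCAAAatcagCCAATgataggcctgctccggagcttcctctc
Kif23 chr9:61946785-61946814, minus strand: ggccgctgATTGGcctgTTTGAAatgcgcc
Racgap1 chr15:99651642-99651671, minus strand: gtgATTGGctggtgcgtgatTTTGAAccgg
They were chosen as stretches with both motifs, so they do not compare the 2 kinds of gene. Ndc80, also of r below 0.8 at 0.54, has a CHR match and no CCAAT match in its window. A low r over the 12 arrays is not the same as another replicate order within the groups. Kif23 kept the members' replicate order, given below, in all groups but WT T0, and Ndc80 in all but WT T6. A match is a description of the sequence, and binding was not measured.

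The members varied more between arrays of one group than most genes did, and they varied together. The mean over the 39 members was 9.24, 10.75 and 9.16 on the KO T6 arrays numbered 1, 2 and 3, 8.74, 9.29 and 8.68 on the WT T6 arrays, 10.05, 10.71 and 9.46 on the KO T0 arrays and 8.93, 9.46 and 9.80 on the WT T0 arrays. Replicate 2 of both KO groups stood above every other array, and the WT T6 arrays 1 and 3 were lowest. KO T6 replicate 2 was the highest of its group for 39 of 39 members, against 35.7% of all genes tested. In KO T0 the order of replicates 2, 1 and 3 from high to low was kept by 36 of 39 members, against 19.5% of all genes, with Foxm1, Plk1 and Racgap1 outside it. In WT T0 the order 3, 2 and 1 was kept by 35 of 39, against 19.0% of all genes, and the exceptions were Bub3, Foxm1, Kif23 and Racgap1. In WT T6 replicate 2 was highest for 35 of 39, against 34.2% of all genes, with Bub3, Cenpa, Foxm1 and Racgap1 outside. At T6 replicates 1 and 3 lay close together, and the full order 2, 1 and 3 was kept by 24 of 39 members in KO T6 (18.3% of all genes) and 20 of 39 in WT T6 (16.7%). The order of the member mean in all 4 groups was kept by 7 of 39, against 0.912% of all genes. The median within-group SD of the members was 0.93 in KO T6, 0.41 in WT T6, 0.66 in KO T0 and 0.48 in WT T0, against medians over all genes of 0.20, 0.17, 0.19 and 0.17 in the same groups. Over all genes KO T6 replicate 2 and KO T0 replicate 2 were highest on the second principal component, at 48.7 and 29.3. WT T0 replicate 1 and WT T6 replicate 3 were lowest on it, at -28.76 and -21.99.

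**Figure D1:**
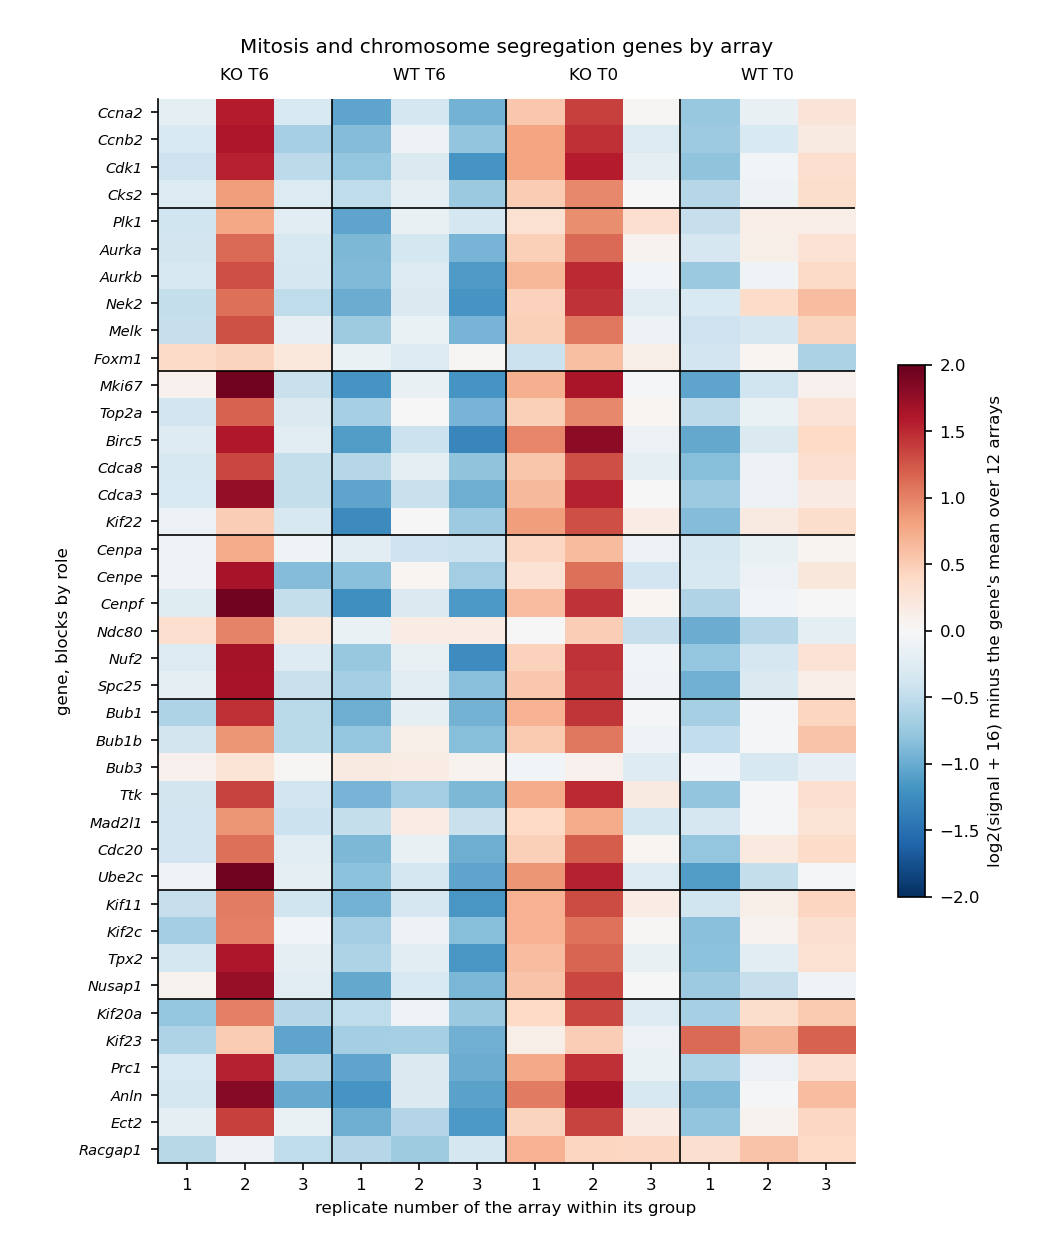
Each row is 1 of the 39 members, in blocks by role, and each column 1 of the 12 arrays; colour is log2(signal + 16) minus the gene's mean over the 12 arrays. Replicate 2 of KO T6 and of KO T0 is red in nearly every row. Foxm1, Bub3, Ndc80, Kif23 and Racgap1 had an r below 0.8 with the mean of the other members over the 12 arrays.

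The span between the highest and the lowest array was widest for Cenpf, a kinetochore protein of late G2 and mitosis, at 3.15, and for Mki67, which coats mitotic chromosomes and is the antigen of the Ki-67 proliferation stain, at 3.12. It was narrowest for Bub3, a checkpoint protein, at 0.60. Mki67 stood at 11.79, 13.64 and 11.26 in KO T6, 10.52, 11.55 and 10.52 in WT T6, 12.42, 13.33 and 11.66 in KO T0 and 10.65, 11.29 and 11.79 in WT T0. The array of replicate 2 stood apart within KO T6, KO T6 overlapped WT T6, and KO T0 overlapped WT T0.

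Markers of other cells were measured on the same arrays, and the erythroid list shared part of the members' array pattern. The mean of the 12 tested erythroid markers (of 19 listed) was 9.76, 11.64 and 8.91 in KO T6, 8.19, 9.32 and 8.76 in WT T6, 10.73, 11.57 and 9.58 in KO T0 and 8.84, 9.31 and 9.49 in WT T0. Its replicate 2 was highest in KO T6, in KO T0 and in WT T6, and replicate 3 in WT T0, as for the members. The full order of the member mean was kept by 9 of 12 erythroid markers in KO T6, 0 of 12 in WT T6, 9 of 12 in KO T0 and 8 of 12 in WT T0, and by 0 of 12 in all 4 groups at once (0.912% of all genes). In WT T6 the erythroid mean was lowest on replicate 1, while the member mean was lowest on replicate 3. Slc4a1, the anion exchanger of red cells, stood at 11.86, 13.79 and 10.09 in KO T6 and 7.74, 8.86 and 8.51 in WT T6. Klf1, a transcription factor of erythroid precursors, stood at 10.04, 12.68 and 9.58 in KO T6 and 8.67, 10.46 and 9.41 in WT T6. Of the globin genes tested, Hba-a2 stood at 7.24, 7.02 and 6.66 in KO T6 and 7.29, 7.63 and 7.47 in WT T6, and Hbb-b2 at 7.23, 6.79 and 7.08 in KO T6 and 6.47, 7.06 and 7.70 in WT T6. Hba-a1, Hbb-bs and Hbb-bt were not among the genes tested.

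The B cell, plasma cell and CD8 T cell marker means had the members' array order in no group. The mean of the 2 tested CD4 T cell markers had it in KO T6, WT T6 and WT T0. In these groups it stood at 6.09, 6.73 and 5.84, at 5.78, 6.38 and 5.20, and at 6.04, 6.07 and 6.22. The myeloid, neutrophil and NK cell means had that order in WT T6 alone, and the megakaryocyte and platelet mean in KO T6 alone. The mean of the 11 CD8 T cell markers was lower in KO than in WT, at 12.53, 12.21 and 12.52 in KO T6, 12.70, 12.73 and 12.84 in WT T6, 12.77, 12.61 and 12.86 in KO T0 and 13.12, 12.98 and 12.90 in WT T0. Its lowest array was KO T6 replicate 2. The labelled cell type is present in all groups by these markers, with Cd8a at 12.70 ± 0.20 in KO T6, 13.06 ± 0.06 in WT T6, 13.36 ± 0.14 in KO T0 and 13.49 ± 0.15 in WT T0 (SD, n = 3 each). The mean of the 14 B cell markers was 9.46, 8.31 and 8.42 in KO T6, 8.10, 7.13 and 7.11 in WT T6, 10.15, 8.63 and 9.0 in KO T0 and 8.79, 8.24 and 7.84 in WT T0, so it was highest on replicate 1 in each group. None of the 14 B cell, 7 plasma cell or 8 neutrophil markers kept the members' order in KO T0 (19.5% of all genes). In WT T6 (16.7% of all genes) 3 of the 8 neutrophil, 5 of 13 myeloid and 1 of the 14 B cell markers kept it. In WT T0 (19.0% of all genes) 2 of the 8 neutrophil markers did. In RNA from a mixed population, fewer cells of a type and less RNA per cell cannot be told apart, for any result below.

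**Figure D2:**
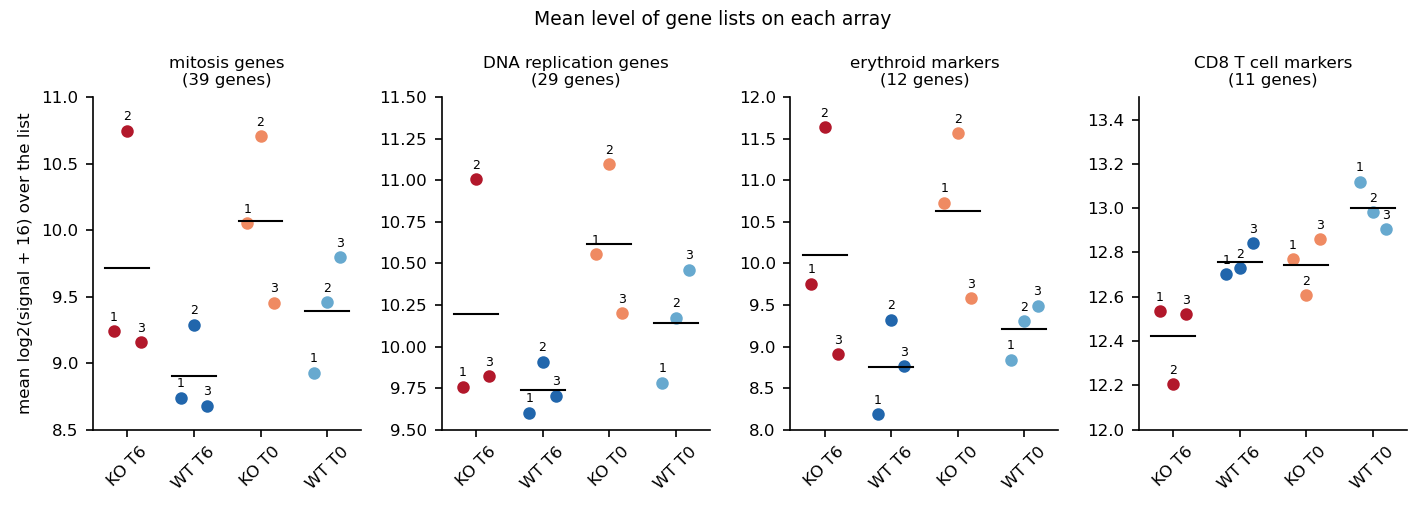
Mean log2(signal + 16) over 4 gene lists on each of the 12 arrays, with replicate numbers beside the points and a line at each group's mean. The mitosis, DNA replication and erythroid lists are highest on replicate 2 of KO T6 and of KO T0; the CD8 T cell list is lowest on replicate 2 of KO T6.

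The comparison of genotypes after activation asked how loss of Scap bears on these genes while T cells prepare to grow. In KO T6 against WT T6, 38 of 39 members had a log2 difference above 0 (57.1% of all genes), with a median of 0.84 against 0.04 over all genes, and 0 passed an adjusted p of 0.05 in either direction. Over all genes 0.0304% were called higher and 0.0684% lower. At an unadjusted p of 0.05, 3 members passed, Ect2, Nusap1 and Ccna2, against 11.8% of all genes. The KO T6 arrays lay wholly above the WT T6 arrays for 9 members (Birc5, Ccna2, Cenpa, Ect2, Foxm1, Ndc80, Nusap1, Ttk and Ube2c), against 10.8% of all genes, and wholly below for 0, against 8.01%. Without KO T6 replicate 2 the median was 0.28, with 35 of 39 above 0. With the erythroid marker mean of each array as a covariate the median was 0.01, with 20 of 39 above 0. The erythroid markers themselves had a median difference of 1.20 at T6, with 10 of 12 above 0 and 0 called. The B cell markers had a median of 1.32 (14 of 14 above 0), the plasma cell markers 0.89 (7 of 7), the myeloid markers 0.75 (13 of 13), the neutrophil and precursor markers 1.18 (7 of 8) and the CD8 T cell markers -0.27 (0 of 11). Of these lists only the myeloid one held a called gene, with 1 called higher at a limma adjusted p of 0.0483 (0.0304% of all genes). The part of the B, plasma, myeloid and neutrophil cells in the members' values was not tested.

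Among the cyclins and their kinase, the 4 tested genes had differences of 0.57 to 1.15 between KO T6 and WT T6. Ccna2, cyclin A2, stood at 10.18, 11.93 and 10.06 in KO T6, against 9.30, 10.01 and 9.42 in WT T6, a difference of 1.15 (SE 0.51, adjusted p = 0.423). The groups did not overlap, and replicate 2 stood well above the other KO arrays. Cdk1 itself stood at 9.52, 11.49 and 9.41 in KO T6 and 9.16, 9.65 and 8.76 in WT T6, and these overlapped. Ccnb2, cyclin B2, differed by 0.80, and Cks2, a small Cdk-binding protein, by 0.57.

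The mitotic kinases and Foxm1 had a median difference of 0.83 at T6. Aurka, the centrosomal Aurora kinase, stood at 8.32, 9.82 and 8.37 in KO T6 and 7.79, 8.33 and 7.75 in WT T6, a difference of 0.88 (SE 0.41, adjusted p = 0.437), and its groups overlapped by a narrow margin. Aurkb, the Aurora kinase of the passenger complex, differed by 0.98, Nek2, a centrosome kinase, by 0.86, and Plk1, the Polo kinase of mitotic entry, by 0.58. Foxm1, the transcription factor that drives many of these genes, had little spread within KO T6. It stood at 7.54, 7.61 and 7.37 there and at 7.02, 6.89 and 7.19 in WT T6, without overlap, a difference of 0.48 (SE 0.25, adjusted p = 0.483). Its 3 tested probe sets had differences of 0.48, 0.73 and 1.56. The last comes from the dimmest of the 3, which stood at 4.56, 4.71 and 5.99 in WT T6. It was not called in the fit of single probe sets (SE 0.52, adjusted p = 0.236).

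The chromosome and passenger complex genes had a median difference of 0.92 at T6. Mki67 differed by 1.36 (SE 0.63, adjusted p = 0.437) and Birc5, survivin, by 1.31. Birc5 stood at 9.85, 11.71 and 9.88 in KO T6 and 9.0, 9.68 and 8.81 in WT T6, without overlap. Top2a, the topoisomerase that untangles sister chromatids, differed by 0.70, with overlap. Cdca8, borealin of the passenger complex, differed by 0.70, Cdca3, a factor of mitotic entry, by 1.14 and Kif22, a kinesin of chromosome arms, by 0.68.

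At the centromere and kinetochore, the differences at T6 ran between 0.46 and 1.29. Cenpa, the centromeric histone H3 variant, stood at 10.95, 11.76 and 10.93 in KO T6 and 10.82, 10.61 and 10.60 in WT T6, a difference of 0.54 (SE 0.25, adjusted p = 0.434). Ndc80, the microtubule-binding subunit of the kinetochore, stood at 8.91, 9.58 and 8.79 in KO T6 and 8.45, 8.73 and 8.72 in WT T6, with the smallest difference of its role at 0.46. Its partners Nuf2 and Spc25 differed by 1.10 and 0.91. Cenpf differed by 1.29, with overlap, and Cenpe, a kinetochore kinesin, by 0.73.

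Of the spindle checkpoint and anaphase promoting complex genes, Ube2c, the ubiquitin-conjugating enzyme of that complex, stood at 10.97, 12.97 and 10.86 in KO T6 and 10.22, 10.69 and 9.99 in WT T6, a difference of 1.30. Ttk, the kinase that starts checkpoint signalling, differed by 1.04, and Cdc20, the activator that the checkpoint restrains, by 0.84. Bub3 was the one member below 0, at -0.01 with a 95% interval of -0.27 to 0.25. Mad2l1, which holds Cdc20 inactive, differed by 0.28, and the checkpoint kinase Bub1 and its relative Bub1b by 0.81 and 0.49.

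The spindle motors and the cytokinesis genes held the members of smallest p. Ect2, the exchange factor that activates RhoA at the division furrow, stood at 8.33, 9.87 and 8.36 in KO T6 and 7.52, 7.91 and 7.35 in WT T6, a difference of 1.26 (SE 0.47, adjusted p = 0.348) or 2.39-fold higher in KO. Nusap1, a spindle microtubule bundling protein, stood at 10.40, 12.08 and 10.12 in KO T6 and 9.31, 10.03 and 9.41 in WT T6, a difference of 1.28 (SE 0.50, adjusted p = 0.37). For both genes all 3 KO arrays were above all 3 WT arrays, and the nearest arrays lay closer than the spread within KO. Anln, the furrow scaffold anillin, stood at 8.16, 10.33 and 7.51 in KO T6 and 7.34, 8.22 and 7.44 in WT T6, and its SD of 1.48 within KO T6 was the widest of any member in any group. Kif20a, a midzone kinesin, and Prc1, the midzone microtubule crosslinker, differed by 0.33 and 0.99. Kif11, Kif2c, a microtubule-depolymerising kinesin, and Tpx2, an activator of Aurora A on the spindle, differed by 0.86, 0.63 and 1.03. Racgap1 and Kif23 differed by 0.15 and 0.38.

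**Figure D3:**
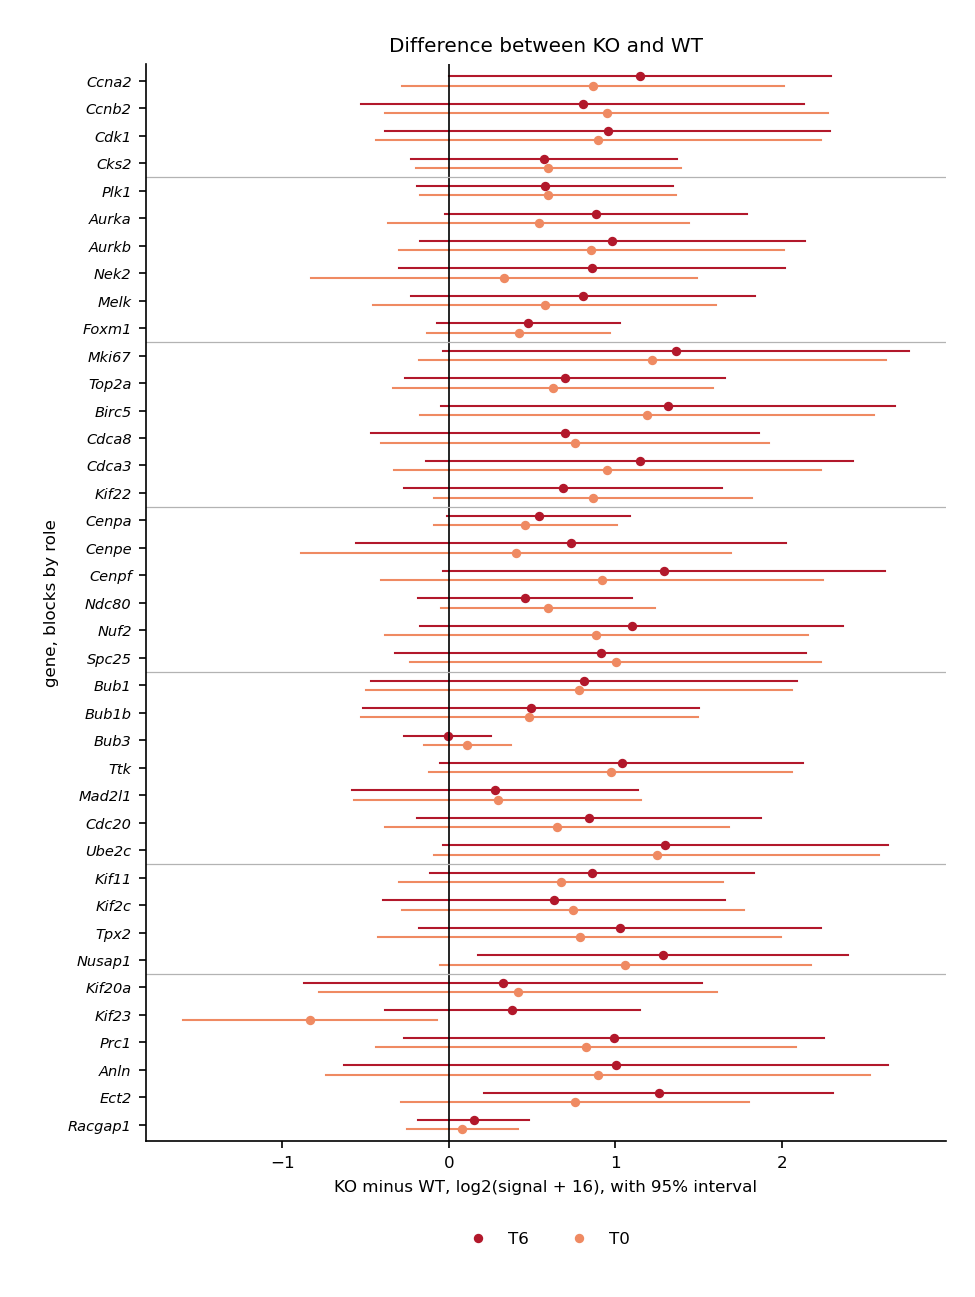
Difference KO minus WT on the log2(signal + 16) scale for each of the 39 members, at T6 and at T0, with its 95% interval from the limma fit. All points but Bub3 at T6 and Kif23 at T0 lie above 0, and the intervals of 36 members at T6 and 38 at T0 include 0.

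The same comparison in quiescent cells used other arrays. In KO T0 against WT T0 the difference was again above 0 for 38 of 39 members (50% of all genes), with a median of 0.76 against 0.00 over all genes, and again 0 members were called in either direction (0.0% of all genes higher and 0.038% lower). A single member, Kif23, passed an unadjusted p of 0.05, against 9.78% of all genes. The groups did not overlap for Cenpf, Nusap1 and Plk1, which were higher (8.11% of all genes), and for Kif23, which was lower (8.51%). Without KO T0 replicate 2 the median was 0.41 with 36 of 39 above 0, and without WT T0 replicate 1 it was 0.44. With the erythroid covariate it was -0.18 with 8 of 39 above 0, and the erythroid markers themselves had a median difference of 1.05 with 10 of 12 above 0. The median was 1.01 for the neutrophil markers (8 of 8 above 0), 0.80 for the plasma cell markers (7 of 7), 0.71 for the B cell markers (14 of 14), 0.52 for the myeloid markers (13 of 13) and -0.23 for the CD8 T cell markers (0 of 11).

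Kif23, the kinesin of the centralspindlin complex that bundles the spindle midzone, was the exception to the common direction. It stood at 9.37, 9.75 and 9.15 in KO T0 and 10.39, 9.93 and 10.44 in WT T0, a difference of -0.83 (SE 0.34, adjusted p = 0.487) with a 95% interval of -1.60 to -0.07. All KO arrays were below all WT arrays. A second tested probe set of the gene ran the same way, with 6.32, 6.56 and 6.51 in KO T0 and 7.61, 7.81 and 7.70 in WT T0, a difference of -1.24 (SE 0.32, adjusted p = 0.287) in the fit of single probe sets. Kif23 lies on chromosome 9, as do Scap and the members Anln, Ccnb2 and Ttk, which differed by 0.90, 0.95 and 0.97 at T0.

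Among the remaining members of small p at T0, Nusap1 stood at 10.90, 11.68 and 10.34 in KO T0 and 9.61, 9.87 and 10.26 in WT T0, a difference of 1.06 (SE 0.50, adjusted p = 0.521). Ube2c stood at 11.92, 12.58 and 10.77 in KO T0 and 9.93, 10.57 and 11.02 in WT T0, with overlap, and differed by 1.25 (SE 0.60, adjusted p = 0.535). Ndc80 differed by 0.59 (SE 0.29, adjusted p = 0.54), Kif22 by 0.87 (SE 0.43, adjusted p = 0.549) and Ttk by 0.97 (SE 0.49, adjusted p = 0.561). Replicate 3 of KO T0 lay within the range of the WT T0 arrays for each of Ube2c, Ndc80, Kif22 and Ttk. The Scap probe set itself stood at 11.11, 11.06 and 11.13 in KO T6, 11.56, 11.55 and 11.60 in WT T6, 11.27, 10.83 and 10.93 in KO T0 and 11.53, 11.03 and 11.23 in WT T0, with differences of -0.47 (SE 0.14, adjusted p = 0.273) at T6 and -0.25 (SE 0.14, adjusted p = 0.593) at T0. Whether this probe set lies in the floxed stretch is not stated, so it does not check the genotype.

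Activation was the second comparison. At T6 against T0 most members had differences below 0, and the centralspindlin genes Racgap1 and Kif23 alone passed the test in the fit without a replicate block. In KO 3 of 39 differences were above 0 (49.6% of all genes), with a median of -0.40 against 0.00 over all genes, and 1 member, Racgap1, was called lower (10.4% of all genes) and 0 higher (10.4%). Same-numbered KO arrays deviated together, and with the replicate number as a block 2 members were called lower in KO, Kif22 and Racgap1, and 1 higher, Ndc80. In WT 3 of 39 were above 0 (44.1% of all genes), with a median of -0.51 against -0.06 over all genes, and Racgap1 and Kif23 were called lower (13.8%) and 0 higher (11.3%). At an unadjusted p of 0.05, 1 member passed in KO (32.8% of all genes) and 3 in WT (36.5%). In KO the T6 arrays lay wholly below the T0 arrays for Racgap1 alone (17.6% of all genes) and wholly above for 0 members (18.9%). In WT they lay wholly below for Aurka, Kif23 and Racgap1 (23.6%) and wholly above for Ndc80 and Bub3 (19.2%). The KO median depended on single arrays, at -0.95 without KO T6 replicate 2, -0.06 without KO T0 replicate 2, -0.12 without KO T6 replicate 1, -0.07 without KO T6 replicate 3 and -0.65 without KO T0 replicate 3. The WT median was -0.29 without WT T0 replicate 3. With the erythroid covariate the medians were -0.02 in KO and -0.22 in WT.

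Racgap1, the RhoGAP subunit of centralspindlin, stood at 9.33, 9.77 and 9.38 in KO T6 and 10.58, 10.32 and 10.30 in KO T0, a difference of -0.91 (SE 0.15, adjusted p = 0.00213). In WT it stood at 9.31, 9.18 and 9.54 at T6 and 10.20, 10.46 and 10.29 at T0, a difference of -0.98 (SE 0.15, adjusted p = 0.00116) or 1.97-fold lower. In both genotypes every T6 array was below every T0 array, and the group means differed by more than the range within any group. A second tested probe set gave -0.81 (SE 0.17, adjusted p = 0.00827) in KO and -0.90 (SE 0.17, adjusted p = 0.00454) in WT.

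Kif23, the partner of Racgap1 in centralspindlin, stood at 8.58, 8.60 and 8.30 in WT T6 and 10.39, 9.93 and 10.44 in WT T0, a difference of -1.76 (SE 0.34, adjusted p = 0.00442) or 3.4-fold lower, without overlap. In KO it stood at 8.64, 9.77 and 8.21 at T6 and 9.37, 9.75 and 9.15 at T0, which overlapped through the array of replicate 2, a difference of -0.55 (SE 0.34, adjusted p = 0.306). Without KO T6 replicate 2 the KO difference was called too, at -0.999 (adjusted p = 0.0144). The 2 genes kept these calls, Racgap1 in both genotypes and Kif23 in WT, under each of the 24 alternatives computed for a single gene.

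**Figure D4:**
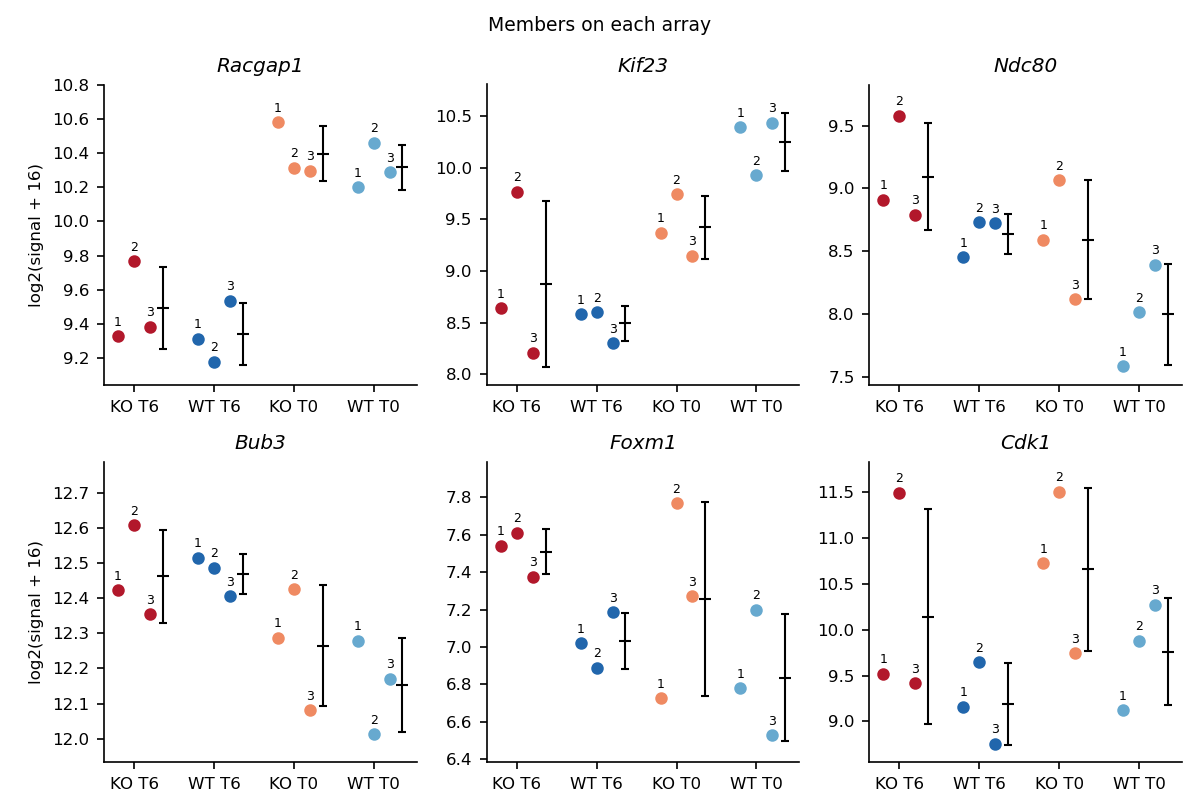
Log2(signal + 16) of Racgap1, Kif23, Ndc80, Bub3, Foxm1 and Cdk1 on each array, with replicate numbers beside the points and the mean ± SD (n = 3) to the right of each group. Racgap1 is lower at T6 than at T0 in both genotypes without overlap, Kif23 in WT; Cdk1 shows the array pattern of most members.

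A few members went the other way. Ndc80 stood at 8.45, 8.73 and 8.72 in WT T6 and 7.58, 8.02 and 8.39 in WT T0, without overlap, a difference of 0.64 (SE 0.29, adjusted p = 0.14). In KO it stood at 8.91, 9.58 and 8.79 at T6 and 8.59, 9.06 and 8.12 at T0, a difference of 0.50 (SE 0.29, adjusted p = 0.266). With the replicate block the KO difference passed the test, at 0.50 (adjusted p = 0.048). The Bub3 probe set of highest signal stood at 12.52, 12.49 and 12.41 in WT T6 and 12.28, 12.01 and 12.17 in WT T0, without overlap, a difference of 0.32 (SE 0.12, adjusted p = 0.0766), and differed by 0.20 (SE 0.12, adjusted p = 0.282) in KO. The other 4 Bub3 probe sets did not share this direction throughout, and one of them was lower at T6 in KO at -0.47 (SE 0.15, adjusted p = 0.0483) in the fit of single probe sets. Foxm1 had differences of 0.25 in KO and 0.20 in WT, with overlap between the times in both.

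Among the other members of small p, Kif11, the kinesin that pushes spindle poles apart, differed by -0.67 (SE 0.44, adjusted p = 0.329) in KO and -0.86 (SE 0.44, adjusted p = 0.188) in WT. A second probe set of the gene passed the test of single probe sets in both, at -1.06 (SE 0.31, adjusted p = 0.0368) and -1.13 (SE 0.31, adjusted p = 0.0262). In the same limma test a second Cenpa probe set was called lower in WT, at -1.12 (SE 0.34, adjusted p = 0.0383). The Cenpa probe set of highest signal differed by -0.20 in WT. Nek2 differed by -1.04 (SE 0.52, adjusted p = 0.179) in WT, Kif22 by -0.74 (SE 0.43, adjusted p = 0.267) in KO. With the replicate block Kif22 was called lower in KO (adjusted p = 0.0431). Cdk1, Mki67 and Top2a differed by -0.51, -0.24 and -0.32 in KO and by -0.57, -0.38 and -0.40 in WT, each with an interval that includes 0.

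Most markers of myeloid cells, some of CD8 T cells and, in WT, some of B cells were called lower on activation. Of 13 tested myeloid markers (14 listed), 11 were called lower in KO and 11 in WT, and their mean was 8.20, 8.10 and 7.61 in KO T6, 7.30, 7.50 and 6.78 in WT T6, 10.83, 10.54 and 10.40 in KO T0 and 10.29, 9.98 and 9.85 in WT T0. C1qa, a complement gene of macrophages, differed by -5.22 (SE 0.37, adjusted p = 1.3e-05) in KO and -4.98 (SE 0.37, adjusted p = 1.4e-05) in WT. Of the 14 B cell markers, 0 were called lower in KO and 4 in WT, with medians of -0.63 and -0.75. Of the 11 CD8 T cell markers, 5 were called lower in KO and 4 in WT, with medians of -0.44 and -0.33. The 12 erythroid markers had medians of -0.45 in KO (1 above 0) and -0.44 in WT (3 above 0). None was called, against 10.4% of all genes called lower in KO and 13.8% in WT. The medians were -0.56 and -0.82 for the 8 neutrophil markers (0 and 1 above 0). They were -0.36 and -0.45 for the 7 plasma cell markers (2 and 1 above 0). The part of the myeloid, B, plasma and neutrophil cells in the values of Racgap1 and Kif23 was not tested.

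**Figure D5:**
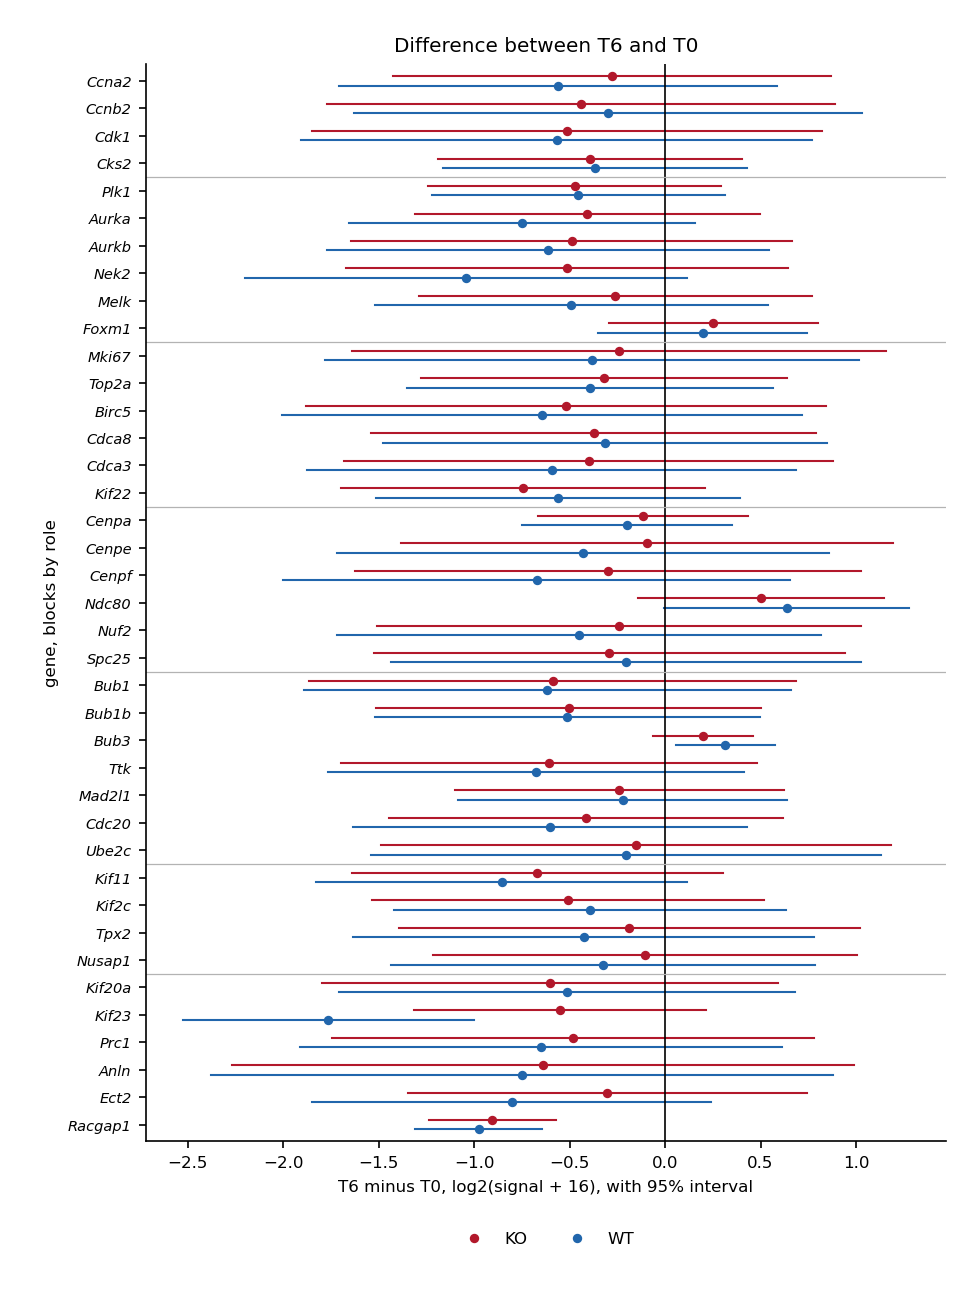
Difference T6 minus T0 on the log2(signal + 16) scale for each of the 39 members, in KO and in WT, with its 95% interval from the limma fit. Racgap1 in both genotypes and Kif23 in WT are the only members called in that fit, which has no replicate block, both lower at T6; Foxm1, Ndc80 and Bub3 lie above 0.

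The difference between the 2 activation changes, KO minus WT, was tested as an interaction. It called 0 of 39 members and 0 of all 13156 genes by limma (0.0% in each direction). At an unadjusted p of 0.05, 1 member passed, Kif23, against 4.59% of all genes. Its interaction was 1.21 (SE 0.48, adjusted p = 1), the KO difference of -0.55 minus the WT difference of -1.76. That of Racgap1 was 0.07, with a 95% interval of -0.40 to 0.54. The median over the members was 0.08, with 28 of 39 above 0 (56.8% of all genes), and it was -0.41 without KO T6 replicate 2 and 0.48 without KO T0 replicate 2.

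Genes next to the members in the same processes were read in 8 related lists. In KO against WT, 0 of their genes were called at T6 or at T0. Over all genes 0.0304% were called higher and 0.0684% lower at T6, and 0.0% and 0.038% at T0. The 29 DNA replication genes had medians of 0.38 at T6 and 0.43 at T0. The members' full array order was kept by 10 of the 29 in KO T6 (18.3% of all genes) and 4 in WT T6 (16.7%). It was kept by 27 in KO T0 (19.5%) and 27 in WT T0 (19.0%). At T6 their mean was highest on replicate 2, as for the members, at 9.76, 11.01 and 9.82 in KO and 9.60, 9.91 and 9.70 in WT. The 21 other spindle and cytokinesis genes had medians of 0.71 at T6 and 0.53 at T0, and Cit, citron kinase of the midbody, had the smallest p of the list at T6, at 1.99 (SE 0.50, adjusted p = 0.19). The 17 subunits and partners of the anaphase promoting complex stayed near 0, with medians of 0.08 and 0.11. The 17 cohesin genes had medians of 0.05 and 0.12, and the 8 condensin genes 0.45 and 0.42.

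On activation, Mad2l2, a relative of Mad2l1 that acts in DNA repair as well as on the anaphase promoting complex, was called higher at T6 than at T0, with differences of 0.98 (SE 0.12, adjusted p = 3.8e-04) in KO and 0.77 (SE 0.12, adjusted p = 0.00129) in WT. It stood at 10.04, 9.79 and 10.11 in KO T6, 9.96, 9.79 and 9.89 in WT T6, 9.01, 9.06 and 8.92 in KO T0 and 9.28, 9.13 and 8.92 in WT T0, so the times did not overlap in either genotype. Nek6, a mitotic kinase, was also called higher, at 0.82 (SE 0.15, adjusted p = 0.00399) in KO and 0.78 (SE 0.15, adjusted p = 0.00428) in WT. Rbl2, the p130 pocket protein of the DREAM complex, was called lower, at -0.44 (SE 0.14, adjusted p = 0.0499) in KO and -0.58 (SE 0.14, adjusted p = 0.0133) in WT. In KO, Pds5b, a cohesin regulator, was called lower at -0.46 (SE 0.09, adjusted p = 0.00489) and Cenpc1, a centromere protein, higher at 0.66 (SE 0.17, adjusted p = 0.0221). In WT, Pmf1 and Ska2, both kinetochore proteins, were called lower at -1.09 (SE 0.25, adjusted p = 0.0108) and -0.83 (SE 0.20, adjusted p = 0.0125). Also in WT, Zwint, a kinetochore protein, was called higher at 0.46 (SE 0.12, adjusted p = 0.0188), and Bora, an activator of Aurora A, lower at -0.65 (SE 0.16, adjusted p = 0.0126). Chaf1b, a histone chaperone subunit of replication, was the 1 DNA replication gene called, lower in WT at -0.86 (SE 0.20, adjusted p = 0.0109). Of the 17 genes of the anaphase promoting complex, Anapc15 was called higher at 0.33 (SE 0.10, adjusted p = 0.045) and Anapc11 lower at -0.47 (SE 0.13, adjusted p = 0.0273) in KO, and Anapc10 higher at 0.26 (SE 0.08, adjusted p = 0.0485) in WT. Of the 19 Rb, E2F, Myb and MuvB genes, E2f5, a repressor E2F, was called higher in KO at 0.48 (SE 0.15, adjusted p = 0.0478), beside Rbl2. No other gene of the 8 related lists was called on activation. Over all genes 10.4% were called higher and 10.4% lower in KO, and 11.3% and 13.8% in WT. The DNA replication genes had activation medians of -0.36 in KO (0 of 29 above 0) and -0.37 in WT (3 of 29). Those of the condensin genes were -0.24 and -0.30, and of the other spindle and cytokinesis genes -0.25 and -0.44. The anaphase promoting complex list stayed near 0, at -0.01 and -0.03. Medians over all genes were 0.00 and -0.06. The condensin list and the other spindle and cytokinesis list had 0 called genes on activation in either genotype, where Ncapd3 and Kif3b had the smallest p in WT at -0.29 (SE 0.14, adjusted p = 0.179) and -0.44 (SE 0.16, adjusted p = 0.0676).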

How the data were processed

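The authors deposited one table of intensity values per probe set for 12 Affymetrix arrays, 3 in each of 4 groups, made with GCOS per the submitters' processing notes (no version is given there). The deposited intensities have a trimmed mean (percentiles 2 to 98) of 500.003 on each array, so they had been scaled, and no further normalization was applied. Array medians ran between 61.3 and 76.2. Read depth does not apply to arrays, and 3 arrays a group limit the precision.

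Values were taken as log2(intensity + 16), which understates changes of dim genes. Of 45101 probe sets, 64 were controls, 34945 had 1 gene symbol, 932 several and 9160 none in the platform annotation, and those with 1 symbol were used. For each of 18193 genes the probe set of highest mean was kept, and genes above percentile 40 of the array on at least 3 arrays were tested (13156). The 4 groups were fitted together with limma 3.58.1 in R 4.3.3 (lmFit, eBayes), with 5 contrasts: KO against WT at T6 and at T0, T6 against T0 in KO and in WT, and their interaction. Every adjusted p is limma's, Benjamini-Hochberg adjusted over all tested genes, and a gene is called under 0.05. The fit was tested on simulated data, with log2 changes of 0.5, 1 and 2 put into some genes. For KO against WT at T6 it called 11.9%, 61.2% and 93.9% of them, with 7 false calls. For the interaction it called 1.5%, 37.3% and 75.8%. Smaller changes were thus often missed, and a count of 0 called members does not show equal levels. Deviations from the group means of same-numbered T6 and T0 arrays correlated across genes at 0.18, 0.46 and 0.38 in KO. Of the differently numbered KO pairs, T0 replicate 3 with T6 replicate 1 had 0.14, and the others were negative. In WT, same-numbered pairs had 0.23, -0.06 and -0.11. There T0 replicate 2 with T6 replicate 3 had 0.20, and T0 replicate 3 with T6 replicate 2 had 0.23. Which arrays share a mouse is thus not settled, and the labels name none.

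The members and all gene lists were chosen with earlier results of these data known. Any member could be named, with full statistics for those called or, under 6 calls, the 6 of smallest p. From each related list up to 4 called genes, or the 1 of smallest p, could be named, and marker genes as description.

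Alternatives covered the added constant, the filter, quantile normalization, median centring, averaging the probe sets of a gene, single probe sets, separate fits, the replicate block, the erythroid marker mean as a covariate, array weights and leaving arrays out.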

Additional observations from a re-analysis of the deposited data

How the results depend on the processing

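The counts of 0 called members in KO against WT, at T6 and at T0, and in the interaction were the same under every alternative run. The median KO against WT differences moved beyond the pooled within-group SD of the member mean (0.61) under one alternative, the erythroid covariate, at 0.0067 for T6 and -0.1782 for T0. Leaving out 1 array at a time gave medians of 0.28 to 1.13 at T6 and 0.41 to 1.04 at T0. For T6 against T0 in KO, the erythroid covariate called 1 member higher (Ndc80). The count called lower in KO was 1 to 2 when single arrays were left out, 2 without both KO arrays of number 2 (Kif23 and Racgap1), and 4 when single probe sets were tested. In WT the count called higher was 1 with the filter at percentile 60, 1 with median centring, 1 with array weights, 1 without both KO arrays of number 2 (Bub3 each time) and 2 with the erythroid covariate (Bub3 and Ndc80). The count called lower in WT was 3 with the erythroid covariate (Kif23, Nek2 and Racgap1), 4 without both KO arrays of number 2 and 6 for single probe sets. The sign turned for Bub3 with the mean of its probe sets, at -0.2802 in KO and -0.2137 in WT. Single-gene interactions turned too. They spanned -0.0082 to 0.8504 for Ect2, -0.0004 to 0.9728 for Nek2, -0.1451 to 0.6287 for Aurka and -0.3861 to 0.8155 for Cenpf as single arrays were left out, each lowest without KO T6 replicate 2. For Cenpf, interaction values were also -0.0158 with array weights and -0.011 without both KO arrays of number 2. Of 714 values of 30 single-gene results, 691 kept their sign and side of the threshold, 15 passed it newly and 8 changed sign; other causes of these changes were not tested.

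The fit behind the values above used no replicate block in either genotype, and the block alternative paired arrays by number in both. In WT the deviations of same-numbered T6 and T0 arrays had correlations of 0.23, -0.06 and -0.11. The WT calls of the block thus rest on a pairing that neither the labels nor these values establish. With the replicate number within genotype as a block, the median differences were unchanged, at 0.84 for KO against WT at T6. The block called 1 member higher (Ndc80) and 2 lower (Kif22 and Racgap1) in KO, and 1 higher (Ndc80) and 4 lower (Aurka, Kif23, Nek2 and Racgap1) in WT. It changed no count of calls in KO against WT or in the interaction.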

Other observations

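Over the 12 arrays, the genes outside the list whose values ran most like the mean of the 39 members were named after their values were seen, and the arrays share their groups and scaling, so the coefficients are a description. Aspm, a spindle pole protein, came first with a Pearson r of 0.996, and Rrm2, a subunit of ribonucleotide reductase, followed with 0.994. Alad, an enzyme of heme synthesis, had 0.992, ahead of Pbk, a mitotic kinase, with 0.991 and Spag5, a spindle protein, with 0.990. Blvrb, biliverdin reductase B, had 0.989, as had Ncapg, a condensin subunit. Among the 100 genes of highest r were 5 of the 12 tested erythroid markers (Klf1, Car2, Ermap, Gata1 and Rhd), 7 of 29 DNA replication genes and 9 of 21 other spindle and cytokinesis genes. None of the B cell, myeloid or CD8 T cell markers was among them.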
